A study of Homo sapiens with 24 samples.

Results

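Transcripts of the nuclear genes that encode subunits of the mitochondrial respiratory complexes were examined in 4 human cancer cell lines kept in normoxia or hypoxia. The genes were taken from the 23106 gene symbols of the count tables by name alone: the NDUFA, NDUFB, NDUFC, NDUFS and NDUFV genes, SDHA to SDHD, the UQCR genes with CYC1, the COX5, COX6, COX7 and COX8 genes and the ATP5 genes, without NDUFA4, NDUFA4L2 and the NDUFAF assembly factors. The name rule matched 85 symbols. Of these, 79 are subunit genes, with 36 in complex I, 4 in complex II, 9 in complex III, 15 in complex IV and 15 in complex V. The other 6 are no subunit genes: ATP5S and ATP5SL, the pseudogenes ATP5EP2 and UQCRBP1, and ATP5L2 and UQCRHL, copies of ATP5L and UQCRH whose reads can be shared with the parent gene. The tables use older symbols for ATP synthase, so that ATP5F1 here is subunit b of the peripheral stalk, now named ATP5PB.

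The lines came from cancers of the lung (A549), the colon or rectum (HCT116), the prostate (PC3) and the breast (T47D). All were sampled 3 times in 21% oxygen (normoxia) and 3 times after 16 h in 0.5% oxygen (hypoxia), which gives 24 libraries in 8 groups. No group carried a transgene, a knockout or a drug, and all groups grew with fetal bovine serum, L-glutamine, penicillin and streptomycin, in F12K medium for A549 and PC3, McCoy's 5a medium for HCT116 and DMEM for T47D. A difference between lines and a difference between media cannot be told apart, except between A549 and PC3. An established line holds tumor cells alone, without the other cells of a tumor.

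Oxidative phosphorylation couples electron transport to ATP synthesis. Complex I takes electrons from NADH and complex II from succinate, complex III passes them from ubiquinol to cytochrome c, and complex IV (cytochrome c oxidase) hands them to oxygen. Complexes I, III and IV pump protons across the inner membrane, and complex V (ATP synthase) uses the gradient to make ATP. Most subunits are encoded in the nucleus and imported, while a small set comes from mitochondrial DNA and was not analysed here. Lower respiration in hypoxia is a known response of many cultured cells, and so is a change between isoforms of complex IV subunits.

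The sequences shown are the 250 bases before the annotated start of NDUFB3, NDUFA12, UQCR10, COX7B and SDHA. The first 4 genes were called lower in hypoxia in all 4 lines, in fits without pairing. With T47D libraries paired by replicate number, COX7B was not called there. SDHA was called higher in more lines than any other member. The sequences come from RefSeq on GRCh38.p14 and run 5′ to 3′ on the strand of the gene. Capitals mark matches to the motifs named after the sequences. The windows are chr2:201071751-201072000 for NDUFB3, chr12:95003698-95003947 on the minus strand for NDUFA12, chr22:29767119-29767368 for UQCR10, chrX:77899218-77899467 for COX7B and chr5:218070-218319 for SDHA.
NDUFB3: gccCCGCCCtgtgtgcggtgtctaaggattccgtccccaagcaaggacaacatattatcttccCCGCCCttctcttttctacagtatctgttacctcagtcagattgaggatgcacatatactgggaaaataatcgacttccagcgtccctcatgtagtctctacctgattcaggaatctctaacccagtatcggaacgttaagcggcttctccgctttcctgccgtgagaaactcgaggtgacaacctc
NDUFA12: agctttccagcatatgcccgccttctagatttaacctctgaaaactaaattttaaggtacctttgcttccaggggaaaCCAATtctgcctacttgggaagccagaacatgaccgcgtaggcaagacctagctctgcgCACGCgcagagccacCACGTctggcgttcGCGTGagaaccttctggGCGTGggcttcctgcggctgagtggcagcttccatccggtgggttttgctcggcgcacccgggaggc
UQCR10: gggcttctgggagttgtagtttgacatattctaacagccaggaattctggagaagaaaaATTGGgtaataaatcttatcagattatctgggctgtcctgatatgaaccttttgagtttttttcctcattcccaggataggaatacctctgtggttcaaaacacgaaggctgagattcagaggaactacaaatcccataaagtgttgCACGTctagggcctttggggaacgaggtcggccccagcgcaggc
COX7B: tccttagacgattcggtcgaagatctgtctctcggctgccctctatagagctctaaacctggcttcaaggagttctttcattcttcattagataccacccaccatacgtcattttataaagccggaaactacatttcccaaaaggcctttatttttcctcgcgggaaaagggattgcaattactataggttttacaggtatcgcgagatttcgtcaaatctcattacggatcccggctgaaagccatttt
SDHA: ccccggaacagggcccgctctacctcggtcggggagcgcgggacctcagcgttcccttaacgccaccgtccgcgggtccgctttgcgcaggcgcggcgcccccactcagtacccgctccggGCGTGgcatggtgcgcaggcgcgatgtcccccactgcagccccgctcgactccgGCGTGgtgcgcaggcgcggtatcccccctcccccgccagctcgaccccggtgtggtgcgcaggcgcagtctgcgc

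Of the 85 members, 66 had an entry among 27305 RefSeq promoters. The motifs were searched on both strands, and neighbouring matches may share bases. GCATGCGC, the core of the site of NRF1 (a factor known to act on respiratory genes), was in 18.2% of the members' windows and in 2.81% of all windows. CCGGAAG, a site of ETS factors such as GABP, was in 24.2% against 8.82%, and AAGATGG (YY1) in 6.06% against 3.77%. The 2 hypoxia response element cores were in 22.7% against 18.7% (ACGTG) and 47% against 31.9% (GCGTG). The SP1 site GGGCGG was in 53% against 42.3%, and CCAAT (NF-Y) in 34.8% against 33%. These shares describe letters in a window and were not tested.

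The 4 windows of the genes lower in all lines did not look alike. That of NDUFB3 held GGGCGG on the opposite strand, that of NDUFA12 both hypoxia response element cores and CCAAT, that of UQCR10 ACGTG and CCAAT on the opposite strand, and that of COX7B none of the motifs. Their GC content was 50%, 56.8%, 45.2% and 43.2%, against a median of 60.8% over the members and 58% over all promoters. The SDHA window was at 75.2% GC and held the run gcgcaggcgc 4 times. This run was picked after the sequence was seen. On either strand it was in 787 of the 27305 windows (2.88%), 7 of them of members. In 7 windows, that of SDHA among them, it occurred at least 4 times. Among members called lower in at least 3 lines, GCATGCGC was in 18.2% of 11 windows, and among members called lower in no line in 20% of 15.

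Totals of counted fragments ranged from 22698584 to 62850747 per library, and 3 counts, taken as the floor, stand for 0.0477 to 0.132 CPM, the unit of all levels here (counts scaled to the size of the library). Counting error is the only error this floor covers. CA9, NDRG1 and EGLN3, known hypoxia targets, were called higher in hypoxia in all 4 lines. Tissue markers were in part absent: A549 had at most 0.108 CPM of NKX2-1 and SFTPC, HCT116 had CDX2 but at most 0.131 CPM of VIL1, CDH17 and LGALS4, and PC3 had HOXB13 but no count of KLK3, while GATA3, ESR1, PGR and TRPS1 were all present in T47D. PTPRC, a blood cell marker, had at most 0.0177 CPM in A549, HCT116 and T47D and 0.189 to 0.30 CPM in PC3. Nothing in the sources says that the 3 samples of a group were separate cultures, so the p values measure only the spread between these samples.

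The share of all counts that fell on the members was lower in hypoxia in A549, HCT116 and PC3. It was 0.916 to 1.05% in normoxia and 0.772 to 0.870% in hypoxia in A549, and 1.55 to 2.11% against 0.904 to 0.977% in HCT116. PC3 had 1.11 to 1.49% against 1.03 to 1.07%. In T47D the ranges overlapped, with 1.28 to 1.53% in normoxia and 0.859 to 1.30% in hypoxia. A count table of bulk RNA gives levels relative to all other transcripts, and fewer cells and less RNA per cell cannot be told apart.

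To ask which subunit transcripts changed in hypoxia, each line was tested over all genes with edgeR's quasi-likelihood test. A gene was called lower or higher where the fold change passed 1.2 and the Benjamini-Hochberg adjusted p was under 0.05. In each line 79 of the 85 members had enough counts to be tested. HCT116 had the broadest decrease, with 58 of 79 members called lower (73.4%, against 27% of the 13614 genes tested) and 3 higher (23.3% of all genes). In PC3, 26 were called lower (32.9%, against 15.7% of 13466) and 1 higher (16.6% of all genes). A549 had 19 called lower (24.1%, against 17.8% of 13897), and T47D 9 (11.4%, against 6.69% of 14085). No member was called higher in A549 or T47D, where 17.6% and 6.55% of all genes were. At an unadjusted p under 0.05, 2 members were higher in A549 and 1 in T47D, and DESeq2 called 0 in both lines. These fits did not pair libraries. With T47D libraries paired by replicate number, 11 members were called lower and 1 higher there, and the share of all genes was not counted.

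The median log2 fold change (hypoxia over normoxia) of the members tested was -0.24 in A549, -1.12 in HCT116, -0.38 in PC3 and -0.47 in T47D. The SD of this median over the 3 hypoxic libraries was 0.0944, 0.0545, 0.0408 and 0.507, and over the 3 normoxic libraries 0.117, 0.412, 0.309 and 0.162. Over all genes tested the medians were between -0.03 and -0.01. Scaling to total counts in place of TMM shifted all genes by -0.12 in A549 and -0.11 in T47D, and raised the members called lower to 42 and 25.

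Members whose 3 hypoxic libraries all lay below the 3 normoxic ones were 28 of 79 in A549 (24.8% of all genes tested), 59 in HCT116 (32.1%), 38 in PC3 (25.6%) and 12 in T47D (15.8%). The T47D share of members, 12 of 79, was near that of all genes.

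**Figure D1:**
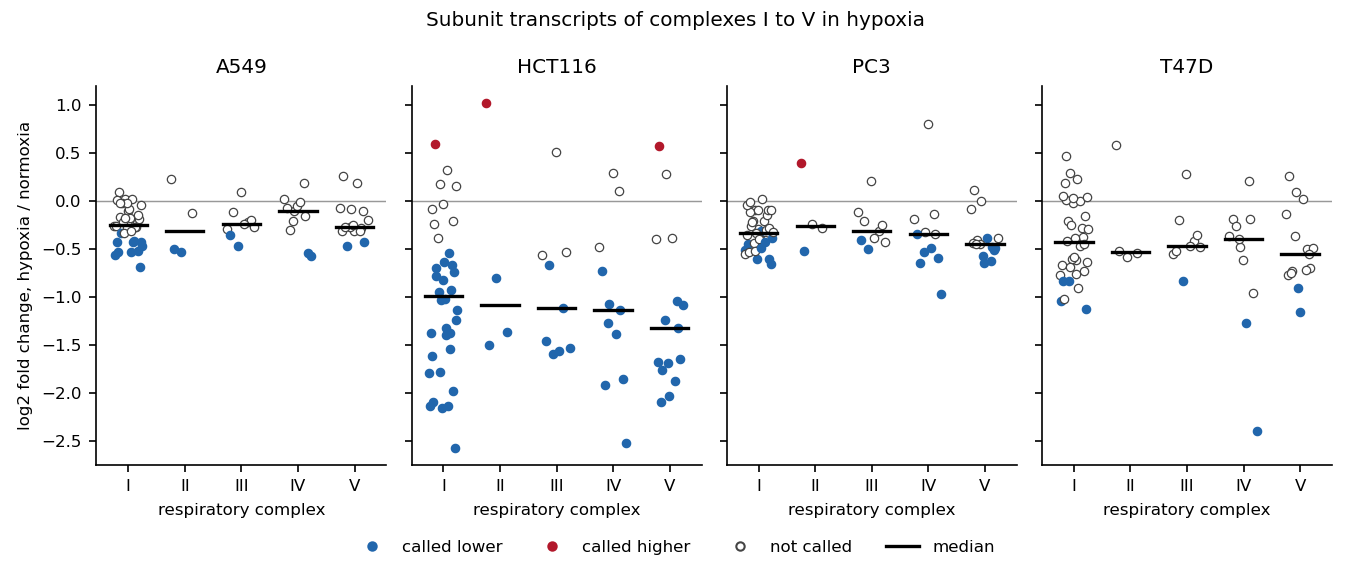
Log2 fold change (hypoxia over normoxia, y axis) of each subunit tested, by respiratory complex (x axis) and cell line (panels). Filled points were called lower (blue) or higher (red) by edgeR, open points were not called, and black bars are medians. The medians lie below 0 in every complex and line, from -0.10 (complex IV in A549) to -1.33 (complex V in HCT116), and SDHA is the red point far above the other complex II subunits in HCT116.

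The median log2 fold change was below 0 in each of complexes I to V. In HCT116 the medians were -0.99 for complex I (27 of 36 called lower, 1 higher), -1.08 for complex II (3 of 4 lower, 1 higher), -1.12 for complex III (6 of 9), -1.13 for complex IV (8 of 11) and -1.33 for complex V (11 of 15, 1 higher). PC3 had medians of -0.33 (9 of 36), -0.26 (1 of 4, 1 higher), -0.32 (2 of 9), -0.35 (6 of 11) and -0.45 (7 of 15). In A549 they were -0.26 (11 of 36), -0.31 (2 of 4), -0.24 (2 of 9), -0.10 (2 of 11) and -0.27 (2 of 15). T47D had -0.43 (4 of 36), -0.53 (none of 4), -0.46 (1 of 9), -0.40 (2 of 11) and -0.55 (2 of 15). Of the complex II subunits of T47D, 3 were lower and 1 higher at an unadjusted p under 0.05, and DESeq2 called 0. In A549 the shares called lower in complexes IV and V, 18.2% and 13.3%, were near or below the 17.8% of all genes tested. Differences between complexes within a line were not tested, and the order of their medians changed with the processing. Complex V had the lowest in HCT116, PC3 and T47D. With an offset for GC content and transcript length, described further on, complex III had, at -0.42, -0.13 and -0.32. In A549 complex II was the lowest without the offset and complex I with it, at -0.12. The medians of complex II in A549 and PC3 and of complex IV in A549 turned to 0.0067, 0.027 and 0.038 with the offset.

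Several libraries stood apart from their group in the members. Each library was set against the normoxic mean of its line, and the median log2 ratio of the members was taken. Hypoxic replicate 3 of T47D was at 0.10, where hypoxic replicates 1 and 2 were at -0.71 and -0.84. It therefore lay among the normoxic libraries, which were at 0.16, -0.01 and -0.17. The hypoxia target CA9 was nevertheless at 32.1 to 44.5 CPM in all 3 hypoxic T47D libraries and at 0 in the normoxic ones. In HCT116 the normoxic replicate 2 was at 0.49 against -0.20 and -0.25 for replicates 1 and 3, and in PC3 the normoxic replicate 3 was at 0.35 against -0.09 and -0.25.

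The counts of calls moved with these libraries. The share of all genes called was not counted with a library left out, so whether members moved more than other genes was not tested. Without hypoxic replicate 3, T47D had 53 members called lower and a median of -0.76. Without the normoxic replicate 2, HCT116 had 50 called lower, all among the 58, 3 higher, and a median of -0.76. Without the normoxic replicate 3, PC3 had 13 called lower and a median of -0.13. Other libraries mattered too, since PC3 had 57 without the normoxic replicate 2 and 1 without hypoxic replicate 2, A549 had 37 without normoxic replicate 3 and 9 without hypoxic replicate 2, and T47D had 0 without normoxic replicate 1 or 2 (14 and 20 lower at an unadjusted p under 0.05). The medians of the complexes moved as well. In T47D those of complexes I to V were -0.76, -0.75, -0.76, -0.66 and -0.84 without hypoxic replicate 3, and -0.24, -0.42, -0.27, -0.26 and -0.39, with -0.28 for all members, without hypoxic replicate 2. In PC3 they were -0.44, -0.35, -0.44, -0.48 and -0.57 without normoxic replicate 2, and -0.13, -0.091, -0.13, -0.27 and -0.22 without normoxic replicate 3. In A549 complex IV had -0.23 without normoxic replicate 3 and -0.038 without normoxic replicate 1, and complex II -0.20 without hypoxic replicate 1.

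**Figure D2:**
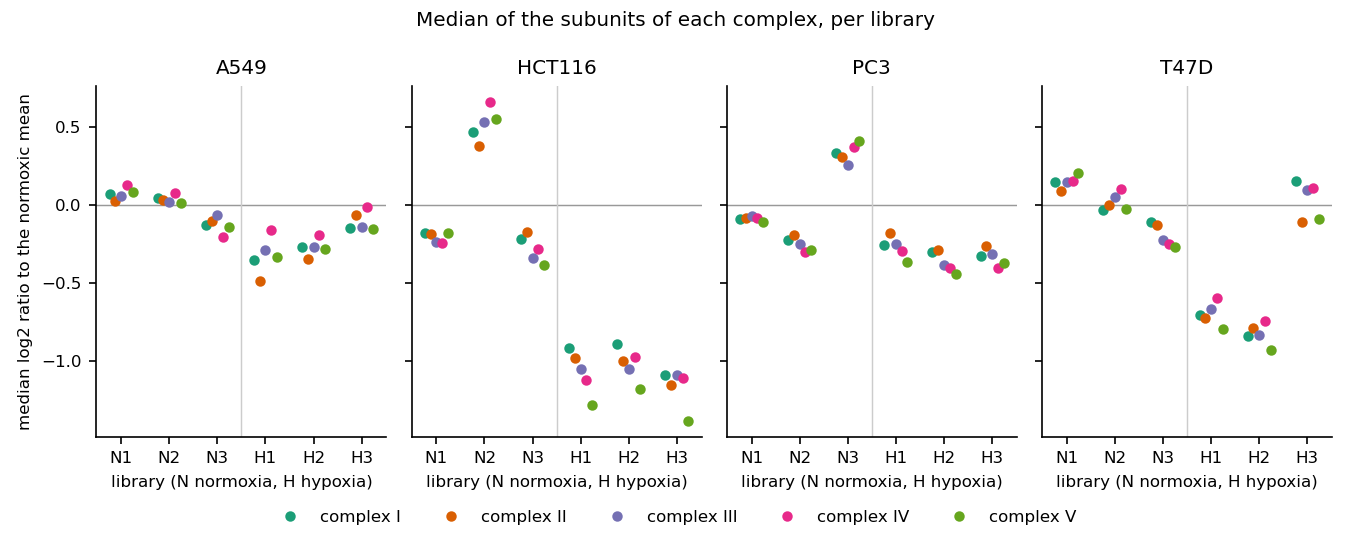
Median log2 ratio of the subunits of each complex to the normoxic mean (y axis) in every library (x axis, N1 to N3 normoxic and H1 to H3 hypoxic) of each line (panels). Points are colored by complex. In hypoxic replicate 3 of T47D, complexes I, III and IV lie above 0, at 0.16, 0.097 and 0.11, and complexes II and V below, at -0.11 and -0.088.

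Among the 77 members tested in all 4 lines, 4 were called lower in all 4 (5.19%, against 3.36% of the 11734 genes tested in all lines) and 14 in at least 3 (18.2%, against 10.5%). A further 20 were called lower in exactly 2 lines, 24 in 1 and 19 in none. The log2 fold change was negative in all 4 lines for 60 of the 77 (77.9%, against 31.1% of all genes). The 4 were NDUFB3 and NDUFA12 of complex I, UQCR10 of complex III and COX7B of complex IV. The labels do not say that libraries are paired, but those of T47D were taken to be paired by replicate number, from correlations between them. The calls above are from fits without pairing. In T47D a fit with the number as a block left COX7B not called and called NDUFA5 lower (-0.62, adjusted p = 0.0409). With that fit NDUFA5 would take the place of COX7B among the 4. Called lower in 3 lines were NDUFA2, NDUFA5, NDUFA6 and NDUFB6 of complex I, SDHD of complex II, UQCRB of complex III, COX6C of complex IV, and ATP5E, ATP5F1 and ATP5J2 of complex V.

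NDUFB3 (GRCh37 chr2:201936724-201950473, 3 exons) encodes an accessory subunit of the membrane arm of complex I. In A549 it was at 56.8, 71.6 and 47.3 CPM in normoxia and 36.3, 34.98 and 37.4 CPM in hypoxia. HCT116 had 113, 200.5 and 76.8 CPM in normoxia and 21.8, 22.1 and 21.8 CPM in hypoxia. The hypoxic values were close together in both lines and the normoxic values were spread. In PC3 NDUFB3 was at 49.9, 42.4 and 79.8 CPM in normoxia and 36.8, 34.6 and 37.8 CPM in hypoxia. T47D had 74.2, 81.4 and 44.7 CPM in normoxia and 26.5, 24.05 and 41.5 CPM in hypoxia. The states did not overlap in any of the lines, although hypoxic replicate 3 of T47D came within a few CPM of normoxic replicate 3. The log2 fold change was -0.69 ± 0.141 (SE, adjusted p = 0.00316) in A549, -2.57 ± 0.297 (SE, adjusted p = 8.98e-05) in HCT116, -0.66 ± 0.196 (SE, adjusted p = 0.0296) in PC3 and -1.12 ± 0.269 (SE, adjusted p = 0.0194) in T47D. NDUFB3 fell most in HCT116, where the fitted hypoxic level was 83.2% lower.

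COX7B (GRCh37 chrX:77154965-77162873, 3 exons), a small subunit of cytochrome c oxidase, was at 188, 435 and 138 CPM in normoxia and 42.1, 47.2 and 43.3 CPM in hypoxia in HCT116. In PC3 it was at 73.6, 72.5 and 148 CPM in normoxia and 46.3, 51.4 and 51.9 CPM in hypoxia. The states did not overlap in either line. A549 had 91.7, 88.04 and 48.6 CPM in normoxia and 55.1, 48.9 and 49.2 CPM in hypoxia. T47D had 108, 109.8 and 36.9 CPM in normoxia and 31.98, 23.98 and 49.6 CPM in hypoxia. In these lines the states overlapped. Normoxic replicate 3 was as low as the hypoxic libraries in A549 and lay below hypoxic replicate 3 in T47D. COX7B fell by 2.52 ± 0.349 (SE, adjusted p = 0.000168) on the log2 scale in HCT116 and by 0.97 ± 0.238 (adjusted p = 0.0140) in PC3. It fell by 0.58 ± 0.193 (adjusted p = 0.0361) in A549 and by 1.27 ± 0.368 (adjusted p = 0.0402) in T47D. With the replicate block the T47D call was lost (-1.21 ± 0.414, adjusted p = 0.0621).

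UQCR10 (GRCh37 chr22:30163358-30166402, 2 exons), a small subunit of complex III, was at 135, 219 and 108 CPM in normoxia and 54.8, 47.8 and 50.4 CPM in hypoxia in HCT116. A549 had 51.1, 48.7 and 46.8 CPM in normoxia and 31.8, 36.2 and 37.9 CPM in hypoxia. The hypoxic libraries were the lower ones in both lines. In PC3 UQCR10 was at 63.2, 53.7 and 85.9 CPM in normoxia and 51.5, 43.5 and 48.2 CPM in hypoxia. In T47D it was at 126, 142 and 101 CPM in normoxia and 58.96, 50.99 and 96.7 CPM in hypoxia. The states were separate here too, with hypoxic replicate 3 of T47D just under normoxic replicate 3. The changes were -0.47 ± 0.108 (SE, adjusted p = 0.00600) in A549, -1.59 ± 0.249 (SE, adjusted p = 0.000287) in HCT116, -0.50 ± 0.157 (SE, adjusted p = 0.0345) in PC3 and -0.84 ± 0.253 (SE, adjusted p = 0.0459) in T47D on the log2 scale.

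NDUFA12 (GRCh37 chr12:95365109-95397473, minus strand, 4 exons) is an accessory subunit of the matrix arm of complex I. HCT116 had 69.99, 127 and 55.8 CPM in normoxia and 28.8, 29.7 and 24.1 CPM in hypoxia. In T47D it was at 146, 153 and 105 CPM in normoxia and 66.1, 58.2 and 101 CPM in hypoxia. Hypoxic replicate 3 of T47D was again the highest of its group. A549 had 80.9, 64.9 and 60.2 CPM in normoxia and 48.97, 49.1 and 54.8 CPM in hypoxia. In PC3 NDUFA12 was at 63.5, 59.4 and 88.4 CPM in normoxia and 50.2, 53.3 and 51.6 CPM in hypoxia. No hypoxic library reached a normoxic one, and in T47D the gap between replicate 3 of each state was small. Its log2 fold changes were -0.43 ± 0.126 (SE, adjusted p = 0.0194) in A549, -1.61 ± 0.273 (SE, adjusted p = 0.000453) in HCT116, -0.45 ± 0.140 (SE, adjusted p = 0.0352) in PC3 and -0.84 ± 0.246 (SE, adjusted p = 0.0414) in T47D.

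**Figure D3:**
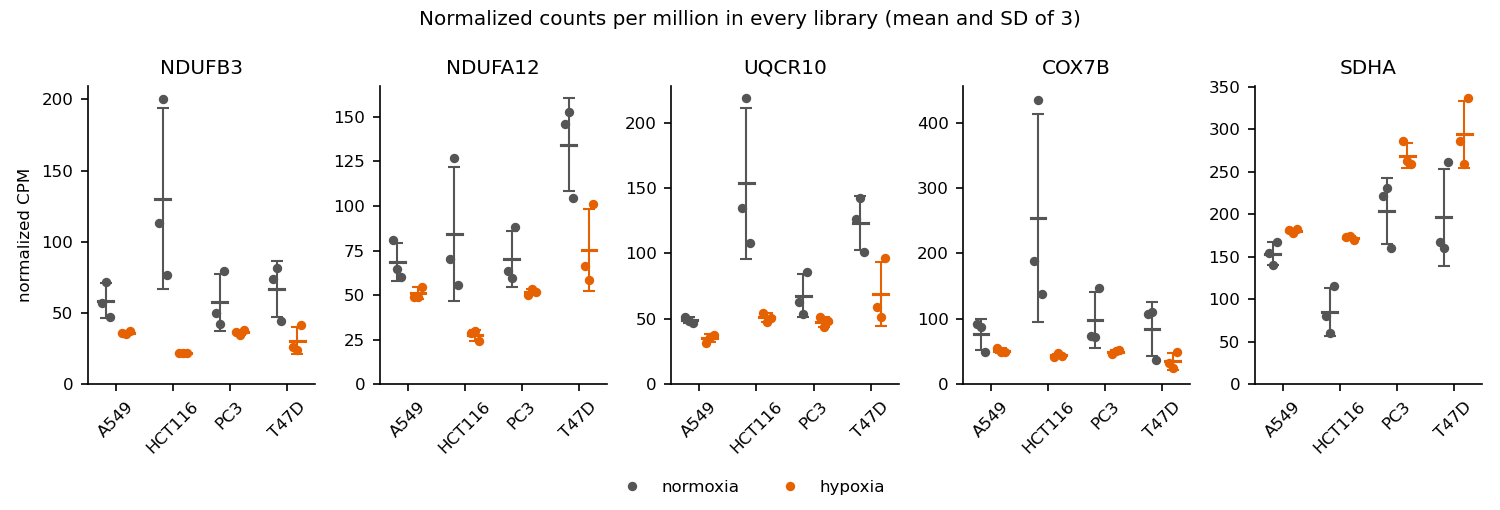
TMM-normalized CPM (y axis, from 0, a scale of its own in each panel) of the 4 genes called lower in all lines and of SDHA, by line (x axis), with normoxic libraries in grey and hypoxic libraries in orange. Points are libraries, and bars are the mean and SD of 3 libraries. The calls are from fits without pairing, and with the replicate block COX7B was not called in T47D. SDHA in HCT116 rises from 60.1 to 115 CPM in normoxia to 169.9 to 174 CPM in hypoxia, while the other 4 genes fall in each line.

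Complex II was the only complex whose members were called in both directions in 2 lines. SDHA (GRCh37 chr5:218435-257197, 15 exons), the flavoprotein that oxidizes succinate, was at 79.7, 60.1 and 115 CPM in normoxia and 173, 174 and 169.9 CPM in hypoxia in HCT116, with the states far apart. It was called higher there (log2 fold change 1.02 ± 0.233 (SE, adjusted p = 0.00300)) and in PC3, with 222, 231 and 159.7 CPM in normoxia and 286, 263 and 259 CPM in hypoxia and a log2 fold change of 0.40 ± 0.135 (SE, adjusted p = 0.0464). A549 had 154, 140.1 and 167 CPM in normoxia and 181, 178 and 182 CPM in hypoxia, also without overlap, but the change of 0.23 ± 0.105 (SE, adjusted p = 0.106) was not called. In T47D the values of 167, 160.1 and 261 CPM in normoxia and 287, 259 and 337 CPM in hypoxia overlapped at normoxic replicate 3. The T47D change was 0.58 ± 0.241 (SE, adjusted p = 0.122), and with the replicate block 0.61 ± 0.192 (adjusted p = 0.0465), which was called. Near-identical copies of SDHA exist elsewhere in the genome, so its count is uncertain. The PC3 call did not hold under scaling to total counts or when any library except normoxic replicate 2 was left out.

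SDHB, the iron-sulfur subunit that takes electrons from SDHA, was called lower in A549 (-0.53 ± 0.106 (SE, adjusted p = 0.00292)) and HCT116 (-0.80 ± 0.200 (SE, adjusted p = 0.00508)). Its HCT116 levels were 144, 197 and 143 CPM in normoxia and 98.6, 94.1 and 85.1 CPM in hypoxia. In PC3 and T47D its changes of -0.24 and -0.59 were not called. Of the membrane anchors, SDHD was called lower in A549 (-0.50), HCT116 (-1.50) and PC3 (-0.52), and SDHC in HCT116 alone (-1.37). SDHD was at 257, 425 and 273 CPM in normoxia and 125, 105 and 107 CPM in hypoxia in HCT116. All 4 complex II genes were called in HCT116, 3 lower and SDHA higher.

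Complex I was divided into 7 core subunits, which carry the flavin, iron-sulfur clusters and ubiquinone site encoded in the nucleus, and 29 accessory subunits. The core medians were -0.15, -0.21, -0.10 and -0.29 in A549, HCT116, PC3 and T47D, and the accessory medians -0.26, -1.03, -0.38 and -0.47. Called lower were 2, 3 and 1 core subunits in A549, HCT116 and PC3, and 9, 24, 8 and 4 accessory subunits in the 4 lines. No core subunit was called in T47D, where 1 was lower at an unadjusted p under 0.05 and DESeq2 called 1. With the replicate block the core subunit NDUFV2 was called lower in T47D. The difference between the 2 classes was not tested. Their median transcript GC content was 53.7% (core) and 48.8% (accessory).

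Among the core subunits, NDUFS1, NDUFS3 and NDUFV2 fell in at least 1 line. NDUFS1, the largest iron-sulfur subunit, was called lower in A549 (-0.34 ± 0.102 (SE, adjusted p = 0.0238)) and HCT116 (-0.78 ± 0.193 (SE, adjusted p = 0.00489)). Its A549 levels were 149, 143 and 129.9 CPM in normoxia and 109, 110.1 and 115 CPM in hypoxia. NDUFS3 was called lower in the same lines (-0.47 and -1.13), and NDUFV2 in HCT116 (-1.40) and PC3 (-0.49). NDUFS7 and NDUFS8, which line the path of electrons to ubiquinone, were called in no line. NDUFV1, which binds NADH and the flavin, was higher in HCT116, at 73.5, 72.3 and 93.4 CPM in normoxia and 112, 133 and 115 CPM in hypoxia with a log2 fold change of 0.59 ± 0.192 (SE, adjusted p = 0.0206). In A549, PC3 and T47D its changes of -0.02, -0.01 and 0.47 were not called.

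Accessory subunits reached the largest decreases in HCT116. NDUFB6 was at 148, 276 and 109 CPM in normoxia and 42.2, 41.0 and 37.96 CPM in hypoxia in that line (log2 fold change -2.14 ± 0.294 (SE, adjusted p = 0.000165)). In A549 it was at 75.1, 68.4 and 52.2 CPM in normoxia and 42.4, 43.7 and 46.1 CPM in hypoxia (-0.56 ± 0.133 (SE, adjusted p = 0.00681)). NDUFB5 was at 238, 482 and 188 CPM in normoxia and 71.7, 71.8 and 62.5 CPM in hypoxia in HCT116 (-2.14 ± 0.306 (SE, adjusted p = 0.000192)), and NDUFA1 at 69.3, 121 and 57.5 CPM in normoxia and 21.3, 24.97 and 25.3 CPM in hypoxia (-1.79 ± 0.260 (SE, adjusted p = 0.000200)). The hypoxic HCT116 libraries of these genes lay within a narrow band and the normoxic ones were spread, with replicate 2 highest. NDUFA2, NDUFB1 and NDUFB9 changed by -1.99, -2.16 and -2.10 in the same line. NDUFA10, NDUFB4, NDUFB11, NDUFS6 and NDUFV3 were called in no line. With the replicate block, NDUFA1 (-0.85, adjusted p = 0.0400), NDUFA5 (-0.62, adjusted p = 0.0409) and the core subunit NDUFV2 (-0.79, adjusted p = 0.0455) were also called lower in T47D. The block gave 11 members lower in T47D, 8 of them among the 9, and 1 higher.

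In ATP synthase, the catalytic F1 head and its central stalk (5 genes) had medians of -0.09, -0.39, -0.08 and -0.14 in A549, HCT116, PC3 and T47D. The peripheral stalk (4 genes) had -0.29, -1.66, -0.45 and -0.73, and the membrane part (6 genes) -0.22, -1.51, -0.46 and -0.64. Called lower in HCT116 were 2 of the 5, all 4 of the 4 and 5 of the 6, against 27% of all genes tested. In the same order PC3 had 2, 1 and 4 (15.7% of all genes). A549 had 0, 1 and 1 (17.8%) and T47D 1, 0 and 1 (6.69%). At an unadjusted p under 0.05, 2 F1 genes were lower in A549 and 3 stalk genes in T47D, and DESeq2 called 0 and 1. Differences between the parts were not tested. Their median transcript lengths were 1759, 682.5 and 639 bases. ATP5A1 and ATP5B, the alpha and beta subunits that form the catalytic sites, were called in no line, with changes of -0.08 in A549, -0.39 in HCT116, -0.08 in PC3 and -0.14 in T47D for ATP5A1 and -0.09 in A549, 0.28 in HCT116, 0.00 in PC3 and 0.10 in T47D for ATP5B. ATP5B was at 825, 911 and 1294 CPM in normoxia and 1279, 1239.7 and 1158 CPM in hypoxia in HCT116, where the states overlapped.

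ATP5E and ATP5D, both in the central stalk, went in opposite directions in HCT116. ATP5E, the epsilon subunit, fell by 2.03 ± 0.320 (SE, adjusted p = 0.000295) on the log2 scale, from 279.9, 496 and 167 CPM in normoxia and 83.2, 77.5 and 70.05 CPM in hypoxia. ATP5D, the delta subunit, was at 95.04, 83.5 and 101 CPM in normoxia and 147, 142 and 127 CPM in hypoxia and was called higher (0.58 ± 0.185 (SE, adjusted p = 0.0195)). The states did not overlap for either gene. ATP5E was also called lower in PC3 (-0.65 ± 0.190 (SE, adjusted p = 0.0277)) and T47D (-1.16 ± 0.309 (SE, adjusted p = 0.0290)). In T47D its levels were 312, 379 and 188 CPM in normoxia and 108, 95.3 and 190.2 CPM in hypoxia, and hypoxic replicate 3 overlapped the normoxic libraries. ATP5D was not called in A549 (0.26), PC3 (0.11) or T47D (0.26).

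Every peripheral stalk gene was called lower in HCT116. ATP5O, which joins the stalk to the F1 head, was at 509, 1064 and 389 CPM in normoxia and 152, 161 and 147 CPM in hypoxia (-2.10 ± 0.321 (SE, adjusted p = 0.000257)). ATP5J was at 157, 249 and 123 CPM in normoxia and 61.4, 53.3 and 50.1 CPM in hypoxia (-1.68 ± 0.252 (SE, adjusted p = 0.000229)). ATP5F1 and ATP5H changed by -1.65 and -1.24. In the other lines ATP5O and ATP5J were not called, with log2 changes between -0.27 and -0.77. ATP5G1, ATP5G2 and ATP5G3 encode the same mature c subunit of the proton-driven ring and changed unequally. ATP5G1 was called lower in A549 (-0.47) and HCT116 (-1.76), ATP5G3 in HCT116 (-1.08) and ATP5G2 in PC3 (-0.38), while the ATP5G2 changes of 0.19 in A549 and -0.39 in HCT116 were not called.

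**Figure D4:**
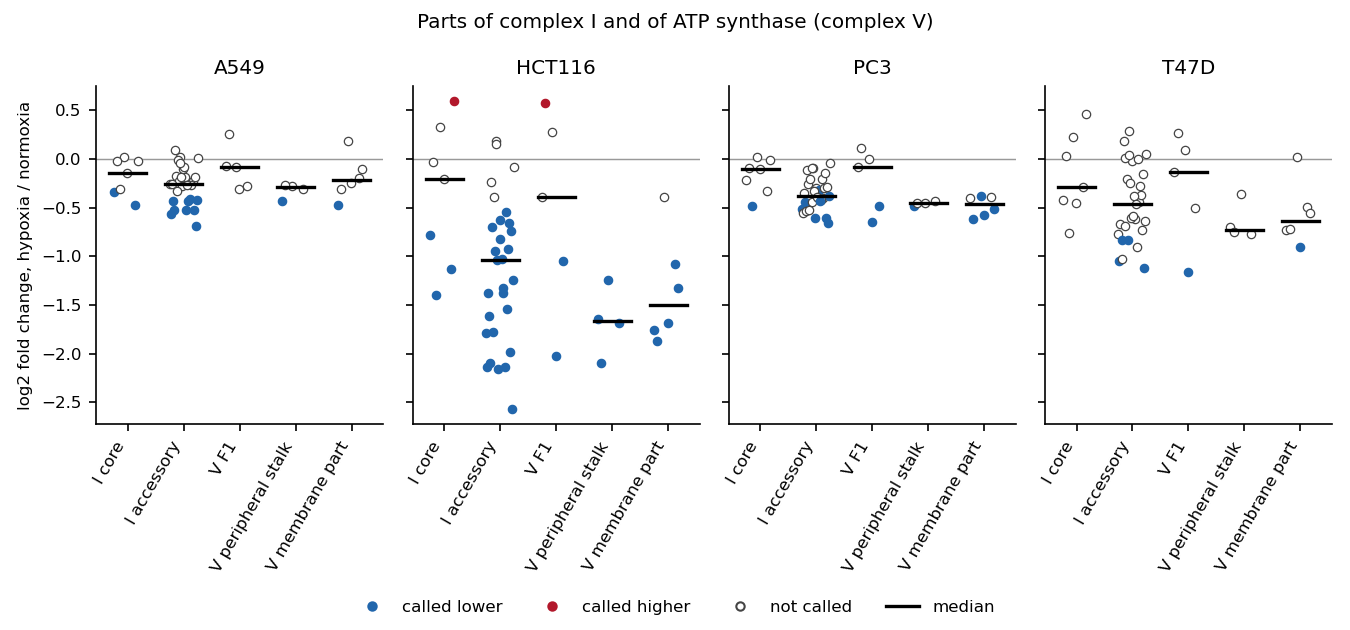
Log2 fold change (y axis) of the subunits of complex I (core and accessory) and of ATP synthase (F1, peripheral stalk and membrane part) on the x axis, in each line (panels). Points are genes, filled where called lower (blue) or higher (red), and bars are medians. In HCT116 the core median is -0.21 and the F1 median -0.39, and the other 3 classes have medians of -1.03, -1.66 and -1.51.

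In complex III, UQCRC1, a large core protein, was called in no line, with log2 changes of 0.10 in A549, 0.51 in HCT116, 0.20 in PC3 and 0.28 in T47D. UQCRFS1, the Rieske iron-sulfur protein, was called lower in HCT116 (-0.67 ± 0.194 (SE, adjusted p = 0.0118)), at 144, 188 and 163 CPM in normoxia and 116, 95.5 and 99.9 CPM in hypoxia. CYC1, cytochrome c1, and UQCRC2 were called in no line. The small subunits UQCR11, UQCRB, UQCRH and UQCRQ changed by -1.12, -1.46, -1.56 and -1.53 in HCT116 and were called lower there. UQCRB was also called in A549 (-0.35) and PC3 (-0.41).

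Complex IV genes include isoforms with tissue-restricted use. COX6A2 and COX7A1, the heart and muscle isoforms, and COX8C, a testis isoform, had too few counts to be tested in any line, and COX6A2 had 0 counts in all 24 libraries. COX7B2, the testis paralog of COX7B, had 0 counts in A549, HCT116 and PC3. In T47D it was at 2.46, 4.27 and 2.21 CPM in normoxia and 0.359, 0.276 and 1.08 CPM in hypoxia, and it was called lower (-2.39 ± 0.524 (SE, adjusted p = 0.0136)). All hypoxic values were below the normoxic ones, and its counts per T47D library ran from 17 to 260. COX6B2, another testis isoform, was tested in A549, HCT116 and PC3 and called in none, with 0.642, 0.684 and 0.858 CPM in normoxia and 1.57, 1.17 and 1.09 CPM in hypoxia in PC3.

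The common isoforms were called mostly in HCT116. COX5A, a matrix-side subunit, was called in no line (0.02 in A549, -0.48 in HCT116, -0.19 in PC3 and -0.36 in T47D). COX5B was called lower in HCT116 (-1.08 ± 0.272 (SE, adjusted p = 0.00545)), at 210.2, 413 and 197 CPM in normoxia and 119, 146 and 124 CPM in hypoxia. COX6A1 was called in HCT116 (-1.13), and COX6B1 in HCT116 (-0.73) and PC3 (-0.35). COX7A2 and COX7A2L, of which the second is known for joining complexes III and IV into supercomplexes, were called in HCT116 (-1.91 and -1.39) and PC3 (-0.65 and -0.49). COX8A was called in no line, with 0.19 in A549, 0.11 in HCT116, -0.13 in PC3 and 0.21 in T47D. COX6C was lower in A549, HCT116 and PC3 (-0.54, -1.86 and -0.60).

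Among the matched symbols that are no subunit gene, ATP5S was called lower in HCT116 (-1.03 ± 0.317 (SE, adjusted p = 0.0156)) and PC3 (-0.68 ± 0.184 (SE, adjusted p = 0.0203)), at 8.35, 5.61 and 7.72 CPM in normoxia and 4.86, 3.99 and 4.58 CPM in hypoxia in PC3. UQCRHL and the pseudogene ATP5EP2 were called lower in HCT116 (-1.99 and -2.32), and the parent genes UQCRH and ATP5E fell in the same line. ATP5EP2 was at 0.333, 0.229 and 0.288 CPM in normoxia and 0.0160, 0.103 and 0.0413 CPM in hypoxia, near the floor. ATP5SL and UQCRBP1 were called in no line, and ATP5L2 was not tested.

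Whether the hypoxia effect differed between lines was tested as the interaction of line and hypoxia over all 24 libraries. It passed an adjusted p under 0.05 for 27 of 81 members (33.3%, against 18.3% of the 16089 genes tested). These were 11 of 36 in complex I, 2 of 4 in complex II, 3 of 9 in complex III, 4 of 12 in complex IV and 7 of 15 in complex V. NDUFB3 had the smallest adjusted p (0.00423), followed by ATP5J (0.0154), NDUFB5 (0.0157), NDUFA1 (0.0165) and ATP5O (0.0178). Each of the 5 had its largest decrease in HCT116, from -1.68 for ATP5J to -2.57 for NDUFB3, and its smallest in A549 or PC3. Without replicate 1 or 2 of every group no member passed, while 32 and 18 had an unadjusted p under 0.05, and without replicate 3 of every group 35 passed. DESeq2 gave 35. In normoxia alone, 77 of 81 members differed in level between the lines (95.1%), a share near that of all genes (93.5% of 15616).

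The members share short transcripts. Their median transcript length was 758 bases, against 2615 over all annotated genes, and their median GC content 47.2%, against 48.9%. Members of low GC content had the larger decreases. Over the 79 members tested, Pearson's r of the log2 fold change with GC content was 0.45 in A549, 0.53 in HCT116, 0.51 in PC3 and 0.48 in T47D, against 0.25, 0.35, 0.32 and 0.26 over all genes tested. These are descriptions across genes that share libraries and base composition. In HCT116, 26 of 28 members under 45% GC were called lower, 25 of 33 between 45 and 55% and 7 of 18 above, where 44.4%, 21.6% and 11.7% of all genes in these classes were. PC3 had 16, 10 and 0 in these classes, against 28.5%, 11.9% and 4.88% of all genes. The share called lower thus fell with GC content over all genes too.

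Other short genes fell too. Of the genes with transcripts under 1000 bases that are no members, 51.1% were called lower in HCT116, with a median of -0.82, against 81.8% of the 44 members of this length, with a median of -1.26. In A549 the shares were 22.6% and 20.5%, in PC3 21.8% and 34.1%, and in T47D 10.5% and 13.3%. The 25 members of 1000 to 3000 bases were called lower in 60% in HCT116 (median -1.03), against 31.6% of other genes of this length (-0.17). Of the 10 members of 3000 bases and over, 70% were called lower in HCT116 (median -1.05), against 20% of other genes (0.18), and 40% in A549 (-0.29), against 14.2% (0.073). In PC3 these shares were 30% and 12.7%, and in T47D 10% and 5.1%. The length is that of 1 annotated transcript per gene, and for some members, among them NDUFS1, NDUFA9, NDUFA5, NDUFV3, UQCRB, ATP5A1 and COX7B, this is a long transcript that may not be the one expressed. The relation of counts to GC content also varied by library. Set against the mean of the line, log2 counts rose by 0.179 to 0.215 per 10 points of GC in the hypoxic HCT116 libraries and fell by 0.139 to 0.254 in the normoxic ones. Hypoxic replicate 3 of T47D had a slope of 0.172, above those of replicates 1 and 2 (0.0551 and 0.0873).

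A fit with an offset for GC content and transcript length in each library left smaller changes. Such an offset also removes any real hypoxia response that follows GC content or length, along with a technical one. The smaller changes cannot tell these apart, and which of them was removed was not tested. In this fit the members' medians became -0.069 in A549, -0.26 in HCT116, -0.088 in PC3 and -0.15 in T47D. Called lower were 9 in A549 (7 of them among the 19), 24 in HCT116 (23 among the 58), 8 in PC3 (4 among the 26) and 2 in T47D (both among the 9), and called higher were 3 in A549 and 6 in HCT116. With the replicate block added to the offsets, T47D had 8 called lower and 2 higher. The share of all genes called was not counted in any fit with offsets, nor for the interaction with offsets. No excess of members over all genes can be read from these counts. An offset for GC content alone, added after the data were seen, gave medians of -0.25, -1.10, -0.37 and -0.42 in A549, HCT116, PC3 and T47D. It called 20 lower in A549 (12 of them among the 19) and 58 in HCT116 (53 among the 58). In PC3 it called 23 lower (13 among the 26), and in T47D 3 (all among the 9). Of the members called higher without an offset, it kept 1 of 3 in HCT116 and 0 of 1 in PC3. COX7B stayed called lower with both offsets in HCT116 (-1.90, adjusted p = 0.000377) and PC3 (-0.70, adjusted p = 0.0229), NDUFB3 in HCT116 (-0.82, adjusted p = 0.00342) and UQCR10 in HCT116 (-0.77, adjusted p = 0.00550). The offset for COX7B used a transcript of 2444 bases and that for NDUFB3 one of 493, and the expressed COX7B transcript may be shorter. NDUFA12 was called in no line with both offsets, and SDHA stayed higher in HCT116 (0.87, adjusted p = 0.00588). The interaction then passed for 8 members.

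**Figure D5:**
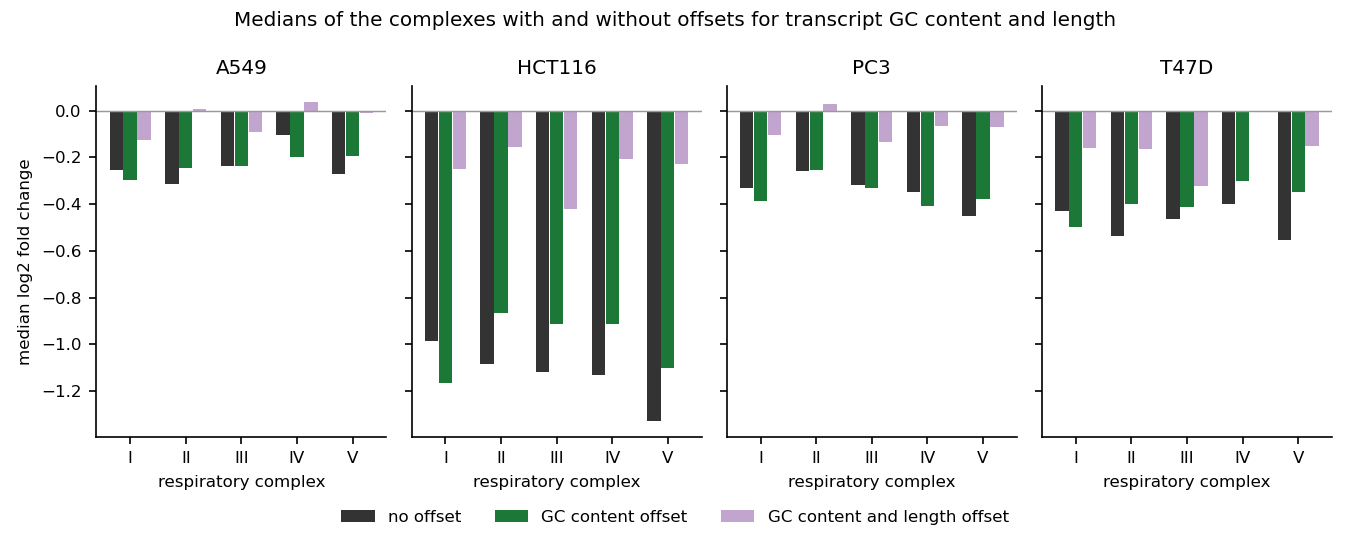
Median log2 fold change (y axis) of the subunits of each complex (x axis) in each line (panels), from fits without an offset (dark grey), with an offset for GC content (green) and with offsets for GC content and transcript length (violet). Bars start at 0. In HCT116 complex V goes from -1.33 without an offset to -0.23 with both, and complex IV in A549 from -0.10 to 0.038.

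Other genes of the pathway were counted from lists by function. Over all genes tested, 17.8%, 27%, 15.7% and 6.69% were called lower in A549, HCT116, PC3 and T47D. Of the 11734 genes tested in all lines, 3.36% were called lower in all 4. Calls of the genes in this and the next 2 paragraphs are from fits without pairing. They were not checked with the replicate block, the offsets or a library left out. Assembly factors of complex I, which build the enzyme but leave it, were called lower in 9 of 13 in A549 (median -0.55), 8 of 13 in HCT116 (-1.40, with NDUFAF3 higher), 7 of 13 in PC3 (-0.41) and 4 of 13 in T47D (-0.50). NDUFAF2, NDUFAF4 and TMEM126B were lower in all 4 lines, the last with -0.80 in A549, -2.87 in HCT116, -0.70 in PC3 and -1.81 in T47D. Of 21 complex IV assembly factors, 10, 14, 7 and 3 were called lower in A549, HCT116, PC3 and T47D. COA6, a copper delivery factor, was lower in all 4 (-0.89 in A549, -2.19 in HCT116, -0.78 in PC3 and -1.11 in T47D). Complex III factors were lower in 4 of 5 in A549, 3 of 5 in HCT116 and PC3 and 1 of 5 in T47D, and complex II factors in 2 of 4, 3 of 4, 2 of 4 and 1 of 3 tested in A549, HCT116, PC3 and T47D. Of the 3 complex V factors, 1 each was lower in A549, HCT116 and T47D and 0 in PC3 (1 at an unadjusted p under 0.05, and 1 called by DESeq2), with medians of -0.12, -0.13, 0.020 and -0.19.

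Genes for the expression of mitochondrial DNA were called lower in 5, 6, 4 and 2 of 9 in the 4 lines. TEFM, the mitochondrial elongation factor, fell in all 4 (-0.91 in A549, -2.38 in HCT116, -0.81 in PC3 and -1.25 in T47D), and TFAM, which packages mitochondrial DNA and starts its transcription, in A549 (-0.53), HCT116 (-1.25) and PC3 (-0.47). POLG and POLRMT were higher in HCT116 (0.66 and 0.81). Of the regulators of respiratory genes, 1 of 8 tested was called lower in each of A549, HCT116 and PC3. That share, 12.5%, was below those of all genes (17.8%, 27% and 15.7%). The gene was GABPB1 in each line (-0.60, -0.80 and -0.65). Called higher were NRF1 (0.53) and MYC (1.08) in HCT116 (25%, against 23.3% of all genes), YY1 in PC3 (0.27) and MYC in T47D (1.01). The tricarboxylic acid cycle, which shares complex II with the respiratory chain, had genes called in both directions. In HCT116, 4 of its 14 genes were called lower (28.6%, near the 27% of all genes) and 6 higher (42.9%, against 23.3%). IDH2 was higher in A549, HCT116 and PC3 (2.19, 1.64 and 0.35).

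The isoform genes outside the name rule crossed with complex IV. NDUFA4, now counted as a complex IV subunit, was called lower in all 4 lines (-0.43 in A549, -2.69 in HCT116, -0.70 in PC3 and -1.21 in T47D). NDUFA4L2, its paralog, was called in none and stayed at or below 2.54 CPM. COX4I1 was called lower in HCT116 (-0.82), and COX4I2, the isoform known from hypoxic lung, was at 0 in A549, PC3 and T47D and at or below 0.0757 CPM in HCT116.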

How the data were processed

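RNA-seq counts of 24 libraries of polyadenylated RNA were used, with line, oxygen state and replicate taken from the sample labels. To make the deposited counts, the authors prepared stranded libraries (NEBNext Ultra II Directional), trimmed reads (Trim Galore), aligned them to GRCh37 (HISAT2), discarded fragments that did not map uniquely (Picard) and counted over UCSC genes (HTSeq, intersection-strict). These deposited counts are not normalized and give a whole number for each symbol. The strand setting of HTSeq is not given in the sources used here, so reads of a gene and of an overlapping antisense gene may not be separated. Discarding such fragments lowers genes with near-identical copies.

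Each line was fitted by edgeR 4.0.16 in R 4.3.3 (TMM scaling, filterByExpr, glmQLFit and glmQLFTest), with Benjamini-Hochberg adjustment of p over all genes tested in the fit. A call needed a fold change over 1.2 with an adjusted p below 0.05. CPM are TMM-normalized, with a prior count of 2 on the log2 scale. The interaction and the normoxic levels were F tests over 24 and 12 libraries. Medians over members are descriptions without a test. The name rule, the groups and the lists were chosen with earlier results of these data known. Full values were to be given for the 3 called members with the largest decrease and increase in each line, the 5 with the smallest interaction p, 2 core members of each complex, isoforms and paralogs, and members called the same way in all lines, and any member could be named. Values of some single genes are not reported here.

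Replicate numbers are shared by the states in the labels. Same-numbered hypoxic and normoxic libraries, each taken as its deviation from the group mean, correlated at 0.150, 0.325 and 0.302 in T47D, and the T47D numbers were taken to pair its libraries. Not every pair passed 0.1 in A549, HCT116 or PC3. Counts and calls are from fits without a block unless the block is named, in T47D too.

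Alternatives were DESeq2 1.42.0, RLE factors, total-count scaling, a mean count minimum of 50 or no filter, a fit of all 24 libraries, the replicate block, offsets for GC content and transcript length (splines with 5 degrees of freedom, GENCODE annotation on GRCh37, 21589 symbols or 93.4% matched, all 85 members among them), stricter calls (fold change 1.5, or adjusted p 0.01) and each library left out. The offsets for GC content alone, for the interaction and the T47D fit with the block and without hypoxic replicate 3 were added after the data were seen. The fits were tried on simulated counts with known changes, and the outcome is not reported here. Replicate effects and a trend with GC content were simulated in A549 and T47D alone. A trend with transcript length was not simulated. Promoters were taken from RefSeq on GRCh38.p14, whose coordinates are not those of the counts.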

Additional observations from a re-analysis of the deposited data

Results flagged for a closer look

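The hypoxia effect of the members listed here differed between the 4 lines, by edgeR's interaction test over 24 libraries with p values adjusted over all genes. In complex I the adjusted p was 0.00423 for NDUFB3, 0.0157 for NDUFB5, 0.0165 for NDUFA1, 0.0178 for NDUFA5, 0.0224 for NDUFB1, 0.0249 for NDUFB6, 0.0402 for NDUFA2, 0.0417 for NDUFS4, 0.0417 for NDUFB9, 0.0437 for NDUFA12 and 0.0441 for NDUFA9. In complex II the adjusted p was 0.0213 for SDHC and 0.0339 for SDHD. In complex III the adjusted p was 0.0292 for UQCRB, 0.0370 for UQCRH and 0.0444 for UQCR10. In complex IV the adjusted p was 0.0241 for COX7A2L, 0.0350 for COX6C, 0.0473 for COX7A2 and 0.0489 for COX7C. In complex V the adjusted p was 0.0154 for ATP5J, 0.0178 for ATP5O, 0.0276 for ATP5E, 0.0289 for ATP5G1, 0.0332 for ATP5F1, 0.0341 for ATP5J2 and 0.0357 for ATP5I. All 27 had their largest change, up or down, in HCT116. Without replicate 1 or 2 of every group none passed (32 and 18 members had an unadjusted p under 0.05), and with offsets for GC content and transcript length 8 did.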

How the results depend on the processing

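The share of all genes called was counted for the main fits alone, so the counts of members in this section have none beside them. RLE factors and a mean count of at least 50 moved no count of calls beyond 1.5 times and no median beyond the spread between replicates. The medians turned direction under the offsets for GC content and transcript length alone, for complex II in A549 and PC3 and complex IV in A549. These offsets also remove any real hypoxia response that follows GC content or length. The cause of the changes was not tested. Over the genes chosen for full values and all settings, 1719 values kept their call or were called in neither fit. Those called in neither fit count as kept even where the sign changed. A call was lost for 220 values and gained for 99, and 8 values with a call in either fit turned direction. Scaling to total counts gave 42 lower in A549 with medians of -0.35 for all members, -0.37 for complex I, -0.35 for complex III and -0.39 for complex V, 25 lower in T47D and 0 higher in PC3 (2 at an unadjusted p under 0.05). A fit of all 24 libraries gave 2 lower in A549, 0 lower and 0 higher in PC3 (13 and 1 unadjusted), 20 lower and 3 higher in T47D and 5 higher in HCT116. In T47D, DESeq2 called 17 lower and no filter 16. The T47D replicate block called 1 higher, and 60 lower without hypoxic replicate 3. A fold change over 1.5 left 1 lower in A549 and 9 lower and 0 higher in PC3. An adjusted p under 0.01 left 9 lower in A549, 1 higher in HCT116, 0 lower and 0 higher in PC3 and 0 lower in T47D (45, 2 and 33 unadjusted). The GC content offset alone gave 3 lower in T47D, 1 higher in HCT116 and 0 higher in PC3 (1 unadjusted). With offsets for GC content and transcript length, A549 had 9 lower and 3 higher, with medians of -0.069 for all members, -0.12 for complex I, 0.0067 for complex II, -0.089 for complex III, 0.038 for complex IV and -0.0078 for complex V. HCT116 had 24 lower and 6 higher, with medians of -0.26 for all members, -0.25 for complex I, -0.15 for complex II, -0.42 for complex III, -0.20 for complex IV and -0.23 for complex V. PC3 had 8 lower and 0 higher, with medians of -0.088 for all members, -0.10 for complex I, 0.027 for complex II, -0.064 for complex IV and -0.069 for complex V. T47D had 2 lower, with medians of -0.17 for complex II, -0.0055 for complex IV and -0.15 for complex V. The interaction then passed for 8 members. With the replicate block added, A549 had 10 lower and 5 higher, with medians of -0.073 for all members, -0.12 for complex I, 0.0039 for complex II, -0.084 for complex III, 0.038 for complex IV and -0.0062 for complex V. HCT116 had 27 lower and 10 higher, with medians of -0.25 for all members, -0.25 for complex I, -0.16 for complex II, -0.40 for complex III, -0.19 for complex IV and -0.22 for complex V. PC3 had 10 lower, with medians of -0.079 for all members, -0.095 for complex I, 0.028 for complex II, -0.058 for complex IV and -0.056 for complex V. T47D had 2 higher, with medians of -0.17 for complex II, -0.0055 for complex IV and -0.19 for complex V. Some log2 changes with a call in either fit turned direction under these offsets, given here without and with the block. Those of SDHB (0.021 and 0.020) and COX6B1 (0.19 and 0.20) in HCT116 and NDUFA12 in PC3 (0.058 and 0.058) were no longer called. That of COX7A2L in A549 (0.34 and 0.34) was called higher. Leaving out each library in turn gave 9 to 37 lower, 0 to 2 higher and -0.32 to -0.16 for complex III in A549, 1 to 4 higher, -1.20 to -0.76 for the median of all members, -1.06 to -0.66 for complex I, -1.15 to -0.76 for complex II, -1.21 to -0.74 for complex III, -1.28 to -0.67 for complex IV and -1.44 to -0.95 for complex V in HCT116, 1 to 57 lower, 0 to 1 higher and -0.50 to -0.13 for the median of all members in PC3, 0 to 53 lower and 0 to 1 higher in T47D, and 0 to 35 members for the interaction. In A549, HCT116 and PC3 the replicate numbers were not taken to pair the libraries. Same-numbered libraries correlated at 0.083 to 0.207 in A549, 0.071 to 0.289 in HCT116 and 0.080 to 0.083 in PC3, and of 6 libraries each, 4, 5 and 6 correlated best with their own number. The replicate block gave 19, 60 and 32 members lower there, and 22 for the interaction.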
